A study of Homo sapiens with 12 samples.

Results

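Brush border structural genes encode the proteins that build and hold together the microvilli on the apical face of intestinal epithelial cells. The 10 genes VIL1, PLS1, ESPN, EPS8, EZR, MYO1A, CDHR2, CDHR5, USH1C and MYO7B were taken by symbol from an RNA-seq table of 25528 genes, and all 10 were found. The libraries came from the established colon adenocarcinoma line HT-29, whose APC gene is mutant, and that genotype is shared by all 4 groups of 3 libraries. In one arm cells were infected with lentivirus carrying an open reading frame for GFP, the control, or for CTNNB1, which encodes beta-catenin, and were collected on day 2. In the other arm cells carried a doxycycline-induced short hairpin RNA, either the control shNT1 or one against APC (shAPC), and were collected 1 day after adding 2 µM doxycycline. The labels do not say that replicates were separate cultures, so p-values here measure only the spread between these libraries.

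A microvillus is a finger of membrane around a core of parallel actin filaments. Villin, plastin 1 and espin bundle the core, EPS8 sits at its tip, and ezrin and myosin 1a tie it to the membrane. The protocadherins CDHR2 and CDHR5 join neighbouring microvilli at their tips, held from inside by harmonin (USH1C) and the motor myosin 7b. In the intestine these proteins accumulate as enterocytes leave the crypt, where WNT signalling through beta-catenin is strongest, and APC normally restrains that signal.

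Values are TPM, a transcript abundance corrected for transcript length and library total, so genes can be compared within a library. TPM keeps no read depth, so the depth is unknown and no counting error can be given. Each arm was tested with limma on log2(TPM + 1) over all genes whose mean TPM reached 1, and a gene was called at a Benjamini-Hochberg adjusted p under 0.05. A fold change on this scale understates the change of weakly expressed genes. In such bulk RNA, fewer cells with a transcript and less transcript per cell cannot be told apart.

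The libraries matched their labels at APC, which fell from a mean of 16.4 TPM with shNT1 to 5.99 TPM with shAPC (log2 fold change -1.32, limma adjusted p = 6.1e-06). CTNNB1 itself averaged 146 TPM with GFP and 160 TPM with CTNNB1 (0.13, limma adjusted p = 0.059), and AXIN2, a feedback target of WNT signalling, rose in both arms (1.04 and 1.59, limma adjusted p = 3e-06 and 3.5e-07). All 6 of EPCAM, CDH1, KRT8, KRT18, KRT19 and KRT20 were well expressed, but the intestinal factor CDX2 averaged only 0.527 TPM. Of the 6, KRT8 and KRT18 were called higher and KRT19 lower with CTNNB1, where 16.3% of all genes were called higher and 7.16% lower. Only 1 rise and 1 fall were called under median-ratio scaling, with no filter and in the fit of all 4 groups. CDH1, KRT19 and KRT20 were called lower with shAPC, where 14.9% of all genes were. Of 10 markers of other cell types, 9 averaged under 1 TPM and CD3E and ALB were at 0 in every library. The exception was CD68, at 15.4 TPM on average. The 10 markers summed to between 27.6 and 28.2 TPM with GFP, 13.8 and 15.7 with CTNNB1, 14.2 and 16.7 with shNT1, and 8.06 and 10.2 with shAPC. Without CD68 the sums were 0.839 to 0.980 TPM with GFP and 1.26 to 1.91 with CTNNB1, higher with no overlap, and 1.19 to 2.37 with shNT1 and 1.86 to 2.09 with shAPC. In the CTNNB1 arm the sum without CD68 thus moved against CD68. VIM, picked out after its values were seen, averaged 0.290 TPM with GFP and 1.08 with CTNNB1. The remaining markers did not share this rise as a set. COL1A1 averaged 0.378 TPM with GFP and 0.392 with CTNNB1, PECAM1 0.209 and 0.147, and the rest were lower still. The part of these markers in the results below was not tested.

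RefSeq promoter windows of GRCh38.p14 were matched for 6 of the 10 genes (12 transcription starts), and 5 windows are shown: those of the called genes EZR and PLS1 (start 1 and start 2), and those of USH1C and MYO1A that hold a match to a WNT or an enterocyte factor. Each window was searched over the 250 bases before a start, and the printed stretch was cut back where it met an annotated exon. The window of PLS1 start 3 began within an annotated exon, so it was searched but is not printed. Capitals mark a match, on either strand, to the letters searched.
EZR promoter: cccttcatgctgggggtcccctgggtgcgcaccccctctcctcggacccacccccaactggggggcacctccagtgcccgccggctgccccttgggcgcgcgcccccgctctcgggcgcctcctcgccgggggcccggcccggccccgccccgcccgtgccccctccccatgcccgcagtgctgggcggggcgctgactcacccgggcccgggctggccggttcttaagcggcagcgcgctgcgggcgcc
PLS1 promoter, start 1: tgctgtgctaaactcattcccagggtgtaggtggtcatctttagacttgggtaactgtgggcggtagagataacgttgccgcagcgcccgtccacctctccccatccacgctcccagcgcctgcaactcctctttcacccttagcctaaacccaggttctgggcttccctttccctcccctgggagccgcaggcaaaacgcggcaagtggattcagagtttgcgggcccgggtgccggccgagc
PLS1 promoter, start 2: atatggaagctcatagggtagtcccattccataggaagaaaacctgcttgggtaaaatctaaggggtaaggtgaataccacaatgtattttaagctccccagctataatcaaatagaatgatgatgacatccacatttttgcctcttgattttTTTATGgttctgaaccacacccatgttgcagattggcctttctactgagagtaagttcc
USH1C promoter, start 2: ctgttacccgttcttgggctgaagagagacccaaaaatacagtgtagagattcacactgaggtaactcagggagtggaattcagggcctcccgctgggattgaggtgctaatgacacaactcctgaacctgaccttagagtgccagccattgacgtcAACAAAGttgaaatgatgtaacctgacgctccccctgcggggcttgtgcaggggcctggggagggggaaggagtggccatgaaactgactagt
MYO1A promoter, start 2: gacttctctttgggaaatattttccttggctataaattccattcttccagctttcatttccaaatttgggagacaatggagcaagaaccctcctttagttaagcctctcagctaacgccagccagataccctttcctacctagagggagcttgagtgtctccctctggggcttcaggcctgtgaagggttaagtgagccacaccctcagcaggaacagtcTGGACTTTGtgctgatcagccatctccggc
The EZR window is chr6:158818236-158818485 on the minus strand and that of PLS1 start 1 chr3:142596143-142596386 on the plus strand, and neither held a match. The window of PLS1 start 2, chr3:142623174-142623385 on the plus strand, held TTTATG, searched for CDX, 97 bases before the start. The USH1C window, chr11:17533886-17534135 on the minus strand, held CTTTGTT on the reverse strand, 1 of the 2 forms searched for TCF/LEF factors, which bind DNA with beta-catenin. CTTTGTT occurs in 4.5% of all 35116 windows of this length and the other form, CTTTGAT, in 2.26%. The MYO1A window, chr12:57050130-57050379 on the minus strand, held CAAAGTCCA, searched for HNF4, again on the reverse strand. That motif occurs in 0.325% of windows, and its reverse complement shares the letters CTTTG with the TCF/LEF forms. TTTATG occurs in 9.64% of windows. GTTAAT, searched for HNF1, occurs in 6.23%, and the window of CDHR2 start 2, which is not printed, held it. Of the 12 windows searched, these 4 (CDHR2, MYO1A, PLS1 and USH1C, each at start 2) held any match. A match is a description of letters, not of a bound site.

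The 10 genes were expressed at very different levels. In GFP libraries EZR led with 277 TPM, followed by EPS8 (153), PLS1 (135), VIL1 (81.5), USH1C (33.9) and CDHR5 (2.47), and no neighbours in this order overlapped. The same order held with CTNNB1 and shNT1. With shAPC, EPS8 (182 TPM) and EZR (175 TPM) overlapped. ESPN, MYO1A, MYO7B and CDHR2 averaged under 1 TPM in every group and were not tested in the main fits. The 5 genes above 30 TPM therefore made up 99.5% to 99.8% of the summed TPM of the 10 genes in every library.

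**Figure D1:**
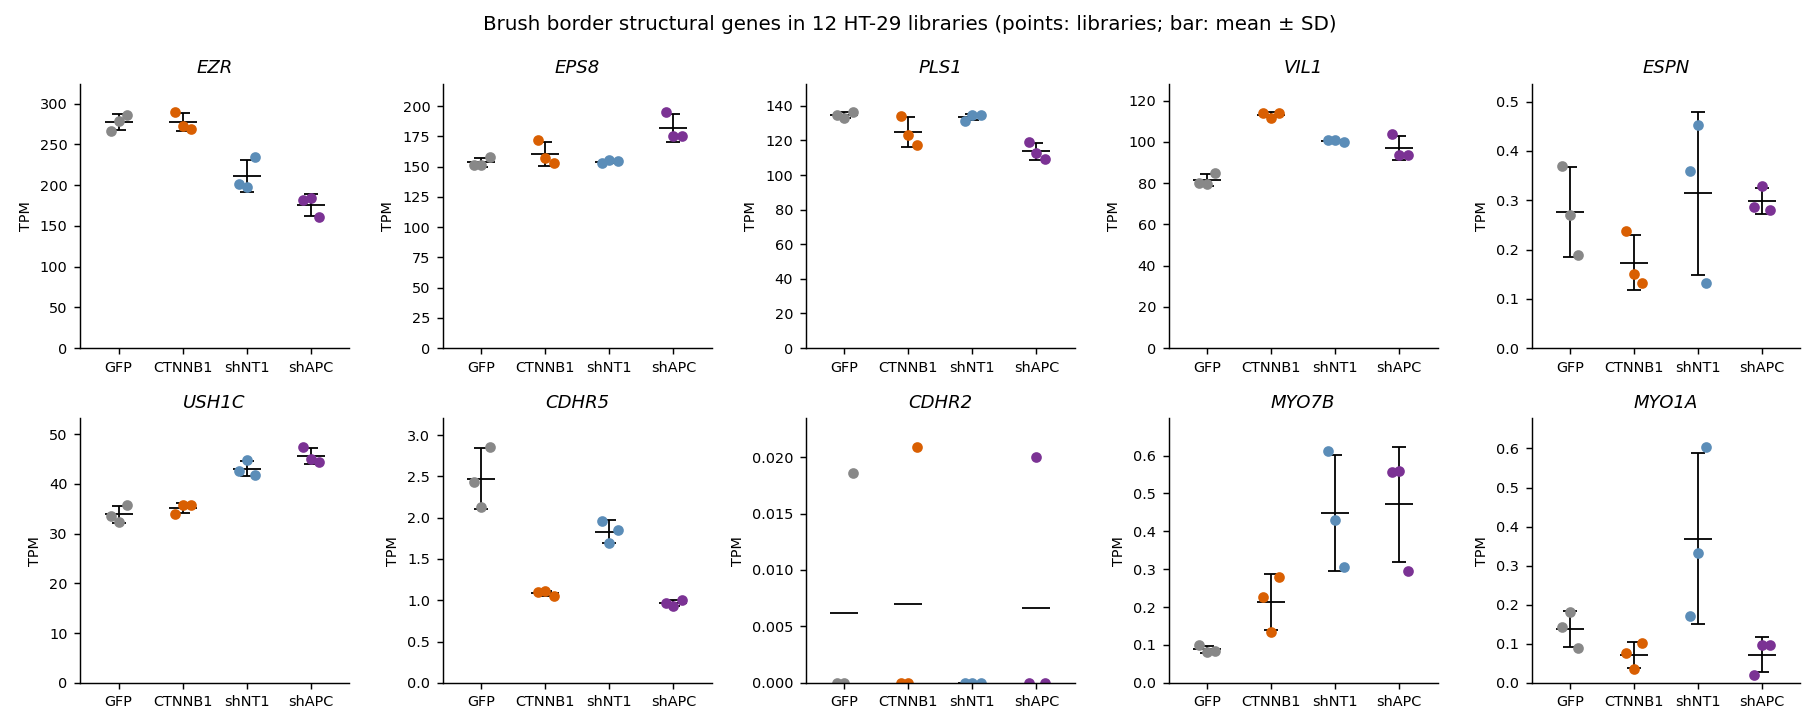
TPM of the 10 brush border genes in each library (points), with the group mean and SD (bars, left out where a library is at 0). Vertical scales differ between genes and start at 0. VIL1 is higher in all 3 CTNNB1 libraries than in GFP, and CDHR5 is lower in both perturbed groups than in their controls.

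Of the 6 genes tested, 2 were called in the CTNNB1 arm, VIL1 higher and CDHR5 lower, against 23.5% of the 11624 genes tested in that arm (16.3% higher and 7.16% lower). In the shAPC arm 4 of 6 were called, EPS8 higher and CDHR5, EZR and PLS1 lower, against 22.1% of 11834 genes (7.24% higher and 14.9% lower). The median log2 fold change of the 6 was 0.03 in the CTNNB1 arm and -0.14 in the shAPC arm, beside 0.06 and -0.04 over all genes tested. Control and perturbed libraries did not overlap for the same 2 genes in the CTNNB1 arm, where 43.2% of all genes did not overlap (30.2% higher and 13% lower), and for the same 4 in the shAPC arm, where 40.9% did not (14.5% higher and 26.4% lower).

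VIL1 (ENSG00000127831, chr2:218419092-218453295, plus strand) encodes villin, which bundles actin and severs it when calcium rises. Its TPM was 79.9, 79.8 and 84.8 with GFP and 114, 112 and 114 with CTNNB1. All 3 CTNNB1 libraries lay above all 3 GFP libraries, and VIL1 rose by 0.47 on the log2 scale (SE 0.0463, 95% interval 0.37 to 0.57, limma adjusted p = 0.00012). In the hairpin arm it was 101, 101 and 100 with shNT1 and 104, 93.4 and 93.8 with shAPC, and the groups overlapped (-0.05, SE 0.0551, 95% interval -0.18 to 0.07, limma adjusted p = 0.53). Exons of VIL1 share up to 3045 bases with USP37 on the opposite strand, and whether the authors counted by strand is not given in the sources used here. USP37 averaged 15.0, 17.5, 16.5 and 14.4 TPM in the GFP, CTNNB1, shNT1 and shAPC groups (log2 fold changes 0.20 and -0.18, limma adjusted p = 0.068 and 0.1), and its part in the VIL1 values was not tested. Smaller exon overlaps, of up to 195 bases, join CDHR2 to GPRIN1, EZR to EZR-AS1, MYO1A to TAC3, and ESPN to TNFRSF25 and AL031848.1.

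PLS1 (ENSG00000120756, chr3:142596387-142713664, plus strand) encodes plastin 1, an actin bundler of the microvillar core. With shNT1 it was 131, 135 and 134 TPM and with shAPC 119, 113 and 109 TPM. The groups did not overlap, and PLS1 fell by 0.23 (SE 0.0509, 95% interval -0.34 to -0.12, limma adjusted p = 0.01). With GFP it was 135, 133 and 136 TPM and with CTNNB1 134, 123 and 118 TPM. CTNNB1 replicate 1 lay within the GFP range (-0.11, SE 0.0545, limma adjusted p = 0.17), and without that library the value was -0.16 with a limma adjusted p of 0.012. Median-ratio scaling of the libraries gave -0.18 with a limma adjusted p of 0.015. ESPN (ENSG00000187017, chr1:6424776-6461367, plus strand), the espin bundler, lay between 0.131 and 0.452 TPM in all 12 libraries, with overlap in both arms. The table also holds ESPNP, a near copy of ESPN, so how reads were shared between them is uncertain.

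EPS8 (ENSG00000151491, chr12:15620158-15882329, minus strand) encodes a tip protein that caps and bundles actin. Its TPM was 153, 155 and 154 with shNT1 and 195, 176 and 175 with shAPC. Every shAPC library was above every shNT1 library, and EPS8 rose by 0.24 (SE 0.0551, 95% interval 0.11 to 0.36, limma adjusted p = 0.014). With GFP it was 151, 151 and 158 and with CTNNB1 172, 157 and 153, which overlapped (0.06, SE 0.0532, 95% interval -0.05 to 0.18, limma adjusted p = 0.41). EPS8 and VIL1, both actin-binding proteins of the core, were thus each called higher in 1 arm, and not in the same arm.

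EZR (ENSG00000092820, chr6:158765741-158819412, minus strand) encodes ezrin, the linker between microvillar membrane and actin. It was the most abundant of the 10 genes in the GFP, CTNNB1 and shNT1 groups. With GFP it was 267, 279 and 286 TPM and with CTNNB1 290, 272 and 269 TPM, groups that overlapped (-0.00052, SE 0.0473, 95% interval -0.11 to 0.11, limma adjusted p = 0.99). With shNT1 it was 202, 198 and 234 TPM and with shAPC 182, 184 and 160 TPM. These did not overlap, and EZR fell by 0.27 (SE 0.0763, 95% interval -0.44 to -0.10, limma adjusted p = 0.032). This call was lost without shNT1 replicate 3 (-0.19, limma adjusted p = 0.063) and without shAPC replicate 1, 2 or 3 (limma adjusted p = 0.065, 0.052 and 0.12). It was also lost with no filter (limma adjusted p = 0.099), quantile normalization (0.082) and no variance trend (0.071).

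MYO1A (ENSG00000166866, chr12:57028517-57051198, minus strand), the motor that joins the core to the membrane, was low throughout. It was 0.172, 0.331 and 0.604 TPM with shNT1 and 0.0196, 0.0968 and 0.0979 TPM with shAPC. The shAPC libraries were all lower, at 0.194 times the shNT1 mean. In a fit of all genes without the filter it was not called (-0.34, limma adjusted p = 0.11). With GFP it was 0.142, 0.181 and 0.0901 TPM and with CTNNB1 0.0757, 0.0363 and 0.101 TPM, and the groups overlapped.

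CDHR5 (ENSG00000099834, chr11:616565-626078, minus strand), a protocadherin of the links between microvilli, was the one gene of the 10 called in both arms. With GFP it was 2.43, 2.13 and 2.86 TPM and with CTNNB1 1.10, 1.11 and 1.05 TPM. The CTNNB1 mean was 0.439 times the GFP mean, and CDHR5 fell by 0.73 on the log2(TPM + 1) scale (SE 0.11, 95% interval -0.98 to -0.49, limma adjusted p = 0.0014). With shNT1 it was 1.96, 1.69 and 1.84 TPM and with shAPC 0.971, 0.930 and 1.00 TPM. The shAPC mean was 0.529 times the shNT1 mean, with a fall of 0.52 (SE 0.115, 95% interval -0.78 to -0.27, limma adjusted p = 0.01). At 0.968 TPM the shAPC mean lay under the filter of 1, which CDHR5 passed in this arm through its shNT1 level. The call was kept with no filter. No perturbed library reached its control range in either arm. Across the 4 groups the order was GFP, shNT1, CTNNB1 and shAPC, with no overlap between neighbours.

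USH1C (ENSG00000006611, chr11:17493895-17544416, minus strand) encodes harmonin, the scaffold that anchors these protocadherins. It was 33.5, 32.4 and 35.8 TPM with GFP and 34.1, 35.8 and 35.8 TPM with CTNNB1, and 42.6, 44.8 and 41.8 TPM with shNT1 and 47.5, 45.03 and 44.5 TPM with shAPC. Both pairs overlapped, with log2 fold changes of 0.05 (95% interval -0.07 to 0.18, limma adjusted p = 0.53) and 0.08 (95% interval -0.04 to 0.21, limma adjusted p = 0.31). The interval held 0 in both arms, in which CDHR5 fell.

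CDHR2 (ENSG00000074276, chr5:176542511-176595974, plus strand), the other protocadherin of the complex, was listed at 0 in 9 of 12 libraries. The remaining values were 0.0186 TPM in GFP replicate 3, 0.0209 in CTNNB1 replicate 3 and 0.0200 in shAPC replicate 2. MYO7B (ENSG00000169994, chr2:127535802-127637729, plus strand), the motor of the complex, was 0.0995, 0.0817 and 0.0830 TPM with GFP and 0.226, 0.134 and 0.279 TPM with CTNNB1. These groups did not overlap, and the mean ratio was 2.42, but the fit without the filter did not call it (0.15, limma adjusted p = 0.084). With shNT1 it was 0.611, 0.429 and 0.305 TPM and with shAPC 0.557, 0.560 and 0.296 TPM, which overlapped.

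**Figure D2:**
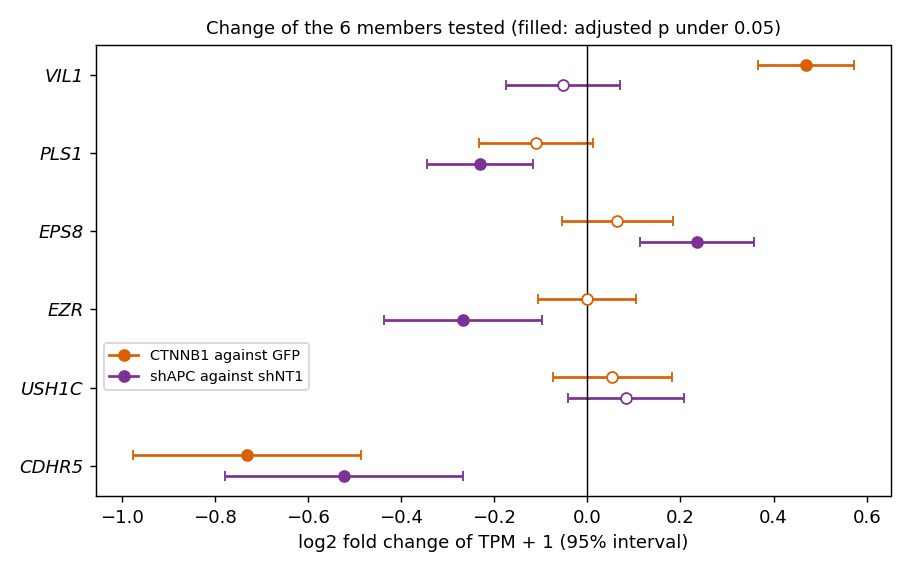
Log2 fold change of TPM + 1 for the 6 genes tested, in the CTNNB1 arm (orange) and the shAPC arm (purple), with 95% intervals. Filled points have an adjusted p under 0.05. VIL1 stands at 0.47 in the CTNNB1 arm and at -0.05 in the shAPC arm, while CDHR5 lies left of 0 in both.

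The difference between the arms (the CTNNB1 effect minus the shAPC effect) was tested in one limma fit of all 12 libraries. Of the 6 genes only VIL1 was called, at 0.52 (SE 0.0685, 95% interval 0.38 to 0.67, limma adjusted p = 0.00031), against 16.1% of 11741 genes (13.3% positive and 2.76% negative). EZR (0.27, limma adjusted p = 0.074) and EPS8 (-0.17, limma adjusted p = 0.14) were not called, although EPS8 was under median-ratio scaling (-0.28, limma adjusted p = 0.0062) and quantile normalization (-0.27, limma adjusted p = 0.019). CDHR5 differed by -0.21 (95% interval -0.51 to 0.10, limma adjusted p = 0.34), PLS1 by 0.12 (limma adjusted p = 0.27) and USH1C by -0.03 (limma adjusted p = 0.82). Scaling moved 3 of these uncalled values by over 1.5 times: under median ratios EZR was 0.15, PLS1 0.0072 and USH1C -0.14 (limma adjusted p = 0.22, 0.95 and 0.23). Over all genes, the median of this difference was 0.11, and 0.00 under median-ratio scaling. That scaling also took the share of higher calls among all called genes from 69.5% to 46.2% in the CTNNB1 arm, from 32.8% to 44.3% in the shAPC arm and from 82.8% to 54.7% for the difference. The controls of the arms also differed. VIL1 averaged 81.5 TPM with GFP and 101 TPM with shNT1, with no overlap. The share of all genes that did not overlap between these controls was not computed, so this is not a trait particular to VIL1. Vector, day and doxycycline differ between the arms and cannot be told apart from the perturbation.

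Summed over the 10 genes, the brush border transcripts held 670 to 704 TPM with GFP, 691 to 745 with CTNNB1, 633 to 668 with shNT1 and 585 to 649 with shAPC, with overlap in both arms.  EZR took 39.9% to 41.1% of it with GFP and 38.8% to 38.9% with CTNNB1. In the other arm EZR took 31.1% to 35.1% with shNT1 and 27.4% to 30.03% with shAPC, so the controls lay apart here too. EPS8 took 28.7% to 30.1% with shAPC and at most 24.4% in any other library. VIL1 took 11.8% to 12.04% with GFP and 15.0% to 16.5% in all other libraries.

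**Figure D3:**
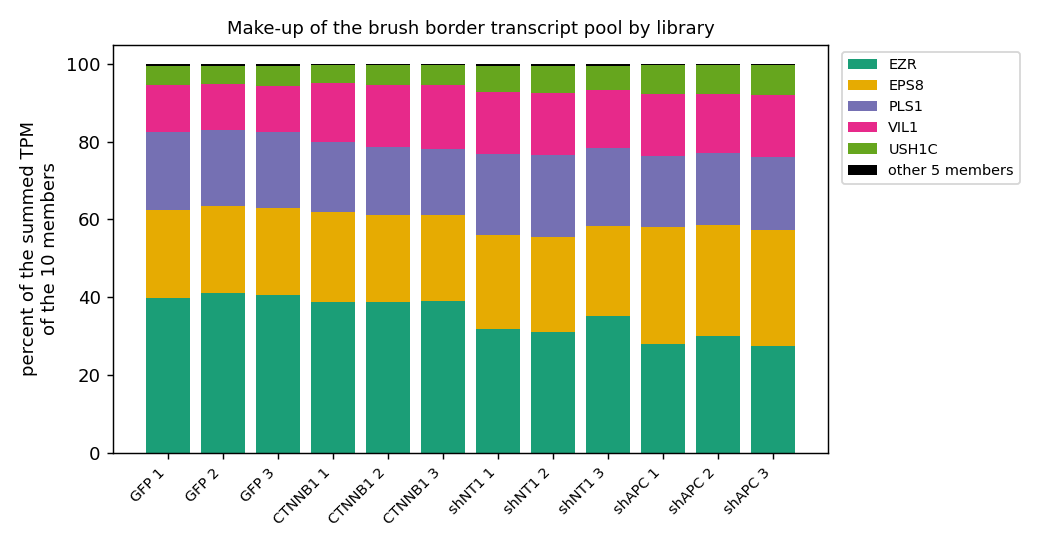
Share of each gene in the summed TPM of the 10 brush border genes, in percent, by library. EZR fills 39.9% to 41.1% of the bar with GFP and 38.8% to 38.9% with CTNNB1. With shNT1 it fills 31.1% to 35.1% and with shAPC 27.4% to 30.03%. EPS8 has its largest share with shAPC.

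Ratios between 2 genes of the same library do not depend on library scaling. These 4 were chosen after their values were seen and are descriptions. VIL1 to PLS1, the 2 main bundlers, averaged 0.605 with GFP and 0.909 with CTNNB1, and 0.753 with shNT1 and 0.852 with shAPC. EPS8 to PLS1 averaged 1.14 and 1.29 in the CTNNB1 arm and 1.15 and 1.60 in the shAPC arm. EPS8 to VIL1 moved in opposite directions, from 1.88 to 1.42 with CTNNB1 and from 1.53 to 1.88 with shAPC. USH1C to CDHR5, scaffold to adhesion protein, went from 13.8 to 32.5 with CTNNB1 and from 23.7 to 47.2 with shAPC. Groups did not overlap for any of the 4 in either arm, which the choice of ratios favoured. An exact two-sided permutation test gave p = 0.1 each time, the smallest that 3 against 3 allows. After such a choice neither adds support. EZR to VIL1 was also computed and overlapped in the shAPC arm (1.96 to 2.34 with shNT1, 1.71 to 1.97 with shAPC). EZR to EPS8 overlapped in neither arm. The share of other gene pairs without overlap was not computed.

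**Figure D4:**
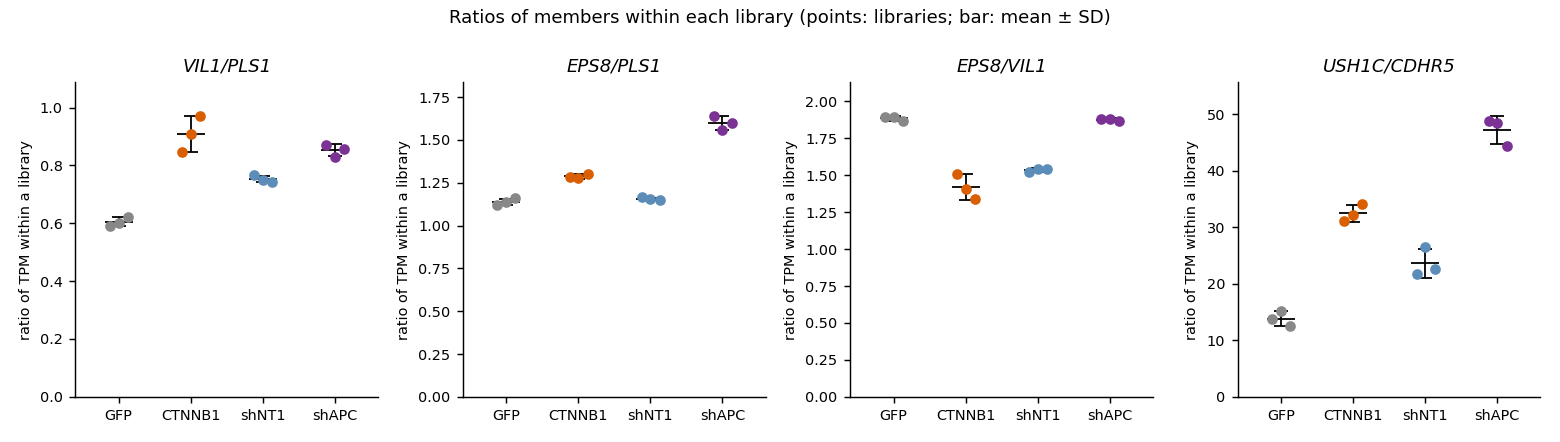
Ratio of TPM of 2 brush border genes within each library (points), with the group mean and SD (bars). USH1C to CDHR5 rises from 13.8 to 32.5 and from 23.7 to 47.2, while EPS8 to VIL1 falls in the CTNNB1 arm and rises in the shAPC arm.

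The authors' deposited table for the CTNNB1 arm called 3 of the 10 genes at an adjusted p under 0.05, against 9.42% of its 28008 rows (4.82% higher and 4.6% lower). In the authors' deposited table, these were VIL1 (0.40, adjusted p = 0.0016), CDHR5 (-1.25, adjusted p = 0.0031) and PLS1 (-0.18, adjusted p = 0.016). The authors' deposited table for the shAPC arm called 3 as well, against 9.01% of its rows (4.11% higher and 4.9% lower). In the authors' deposited table, these were CDHR5 (-0.88, adjusted p = 0.0041), EPS8 (0.28, adjusted p = 0.0068) and PLS1 (-0.19, adjusted p = 0.0056), with EZR at -0.23 (adjusted p = 0.1).

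Around these genes, 75 further brush border genes were followed in 7 lists, of which 51 passed the filter in each arm. In the CTNNB1 arm 22 were called, 12 higher and 10 lower, where 16.3% of all genes were called higher and 7.16% lower. In the shAPC arm 25 were called, 1 higher and 24 lower, where 7.24% of all genes were called higher and 14.9% lower. Their median log2 fold changes were 0.00 and -0.19, beside 0.06 and -0.04 over all genes. The split in the CTNNB1 arm became 10 higher and 13 lower under median-ratio scaling (10.8% and 12.6% of all genes) and 8 and 11 with quantile-normalized values (11.6% and 10.3% of all genes). In the shAPC arm 24 and 21 were then lower (13.4% and 11.6% of all genes). The CTNNB1 count dropped to 13, 13 and 12 without GFP replicate 1, 2 or 3, and to 14 without CTNNB1 replicate 2. Over all genes the called share also dropped in these fits, from 23.5% to 13.9%, 12.9%, 14.6% and 15.2%. Of the 51, 16 differed between the arms, all with the CTNNB1 effect higher, where 13.3% of all genes did, and 9 of 10 did so under median-ratio scaling, where 6.69% of all genes did.

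Beside the adhesion members, ANKS4B and CALML4, listed as partners in the adhesion complex, both fell with shAPC (-0.26 each, limma adjusted p = 0.025 and 0.0099). They were not called with CTNNB1 in the main fit (-0.13 and -0.14). CALML4 was called lower there under median-ratio scaling, under quantile normalization and without CTNNB1 replicate 1. Neither gene was called between the arms. Among 12 tested bundlers, nucleators and caps, 2 rose and 5 fell with CTNNB1 (16.3% and 7.16% of all genes), and 7 fell with shAPC (14.9% of all genes). COBL, an actin nucleator, rose with CTNNB1 (0.52, limma adjusted p = 0.00069), as did the bundler FSCN1 (0.50, limma adjusted p = 0.014), and the capping gene TWF2 fell (-0.38, limma adjusted p = 0.0025). With shAPC the membrane-bending genes BAIAP2L2 (-0.57) and BAIAP2L1 (-0.44) and the EPS8 relative EPS8L3 (-0.42) fell, as did PLS3, the most abundant of the list at 134 TPM (-0.27, limma adjusted p = 0.0097). BAIAP2L1 and EPS8L3 were also called lower with CTNNB1 (-0.21 and -0.24, limma adjusted p = 0.02 and 0.025). Both calls were lost without GFP replicate 3 or CTNNB1 replicate 2. That of BAIAP2L1 was also lost without GFP replicate 2, and that of EPS8L3 without GFP replicate 1. PLS3 was called lower with CTNNB1 only under median-ratio scaling and without CTNNB1 replicate 1. EPS8L3 thus fell in both arms, while EPS8 rose with shAPC.

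Of 8 myosins and partners, 3 rose with CTNNB1 (16.3% of all genes) and 3 fell with shAPC (14.9%). MYO1D rose with CTNNB1 (0.55). MYO5B, a motor of apical transport, rose with CTNNB1 (0.33) and fell with shAPC (-0.22, limma adjusted p = 0.049), as did TPM1, a tropomyosin gene and not the unit (0.25 and -0.38). MYO1C fell with shAPC (-0.38, limma adjusted p = 0.0062), and MYL12B, the most abundant, was not called in either arm. Among 11 ezrin relatives, scaffolds and kinases, 4 rose and 2 fell with CTNNB1 (16.3% and 7.16% of all genes), and 6 fell with shAPC (14.9%). The ezrin relative MSN, the most abundant at 381 TPM, fell in both (-0.47 and -0.54, limma adjusted p = 0.00014 and 0.00012). CLIC5 (0.64) and the scaffold PDZK1 (0.46) rose with CTNNB1, and SLK, a kinase of ezrin-type proteins, fell with shAPC (-0.39). SLC9A3R2, a scaffold that binds ezrin, fell in both arms (-0.31 and -0.33).

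Of 7 trafficking genes, 1 rose and 1 fell with CTNNB1, and 1 rose and 2 fell with shAPC. The called share was 28.6% with CTNNB1, near the 23.5% of all genes, and 42.9% with shAPC, beside 22.1%. STX3, a syntaxin of apical fusion, was called higher in both (0.27 and 0.24), though with shAPC not under every setting. VAMP8 fell with CTNNB1 (-0.19), and RAB11A (-0.30) and RAB8A (-0.23) fell with shAPC. Brush border hydrolases and transporters were mostly low: of 18 genes, 16 averaged under 1 TPM and 3 were at 0 throughout. Of the 2 tested, the peptidase DPP4 fell in both arms (-0.21 and -0.31), and the glucose transporter SLC5A1 rose with CTNNB1 (0.28, limma adjusted p = 0.022). Among 9 tested enterocyte transcription factors, 1 rose and 1 fell with CTNNB1 (16.3% and 7.16% of all genes) and 3 fell with shAPC (14.9%). KLF4 fell in both (-0.52 and -0.73), ELF3 rose with CTNNB1 (0.22), and KLF5, the most abundant at 299 TPM (-0.51), and HNF4G (-0.22) fell with shAPC. KLF5 was not called with CTNNB1 in the main fit but was called lower there under some alternatives. These were a filter at a mean TPM of 5, median-ratio scaling, the replicate block, the fit of all groups and leaving out CTNNB1 replicate 1.

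Of the 22 calls in the CTNNB1 arm 10 held under every alternative that tested them (CLIC4, CLIC5, COBL, KLF4, MSN, MYO1D, MYO5B, STX3, TPM1 and TWF2), and of the 25 in the shAPC arm 16 did. The named genes that lost a call with all libraries kept were, in the CTNNB1 arm, ELF3 under median-ratio scaling (limma adjusted p = 0.081), FSCN1, PDZK1 and SLC5A1 with quantile-normalized values (0.051, 0.076 and 0.056), PDZK1, SLC5A1 and SLC9A3R2 with no filter (0.056, 0.051 and 0.052), and VAMP8 with no variance trend (0.057). In the shAPC arm STX3, the one gene of these lists called higher there, lost the call with no filter (limma adjusted p = 0.063) and no variance trend (0.053). So did RAB8A (0.093 and 0.077) and MYO5B (0.093 and 0.069), both also with quantile-normalized values (0.1 and 0.054), and ANKS4B with no filter (0.055). The replicate block ended the shAPC calls of ANKS4B, STX3, RAB8A, HNF4G and MYO5B (limma adjusted p = 0.055, 0.058, 0.067, 0.071 and 0.099).

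Single libraries ended calls too. In the CTNNB1 arm, leaving out GFP replicate 1 did so for DPP4, FSCN1, PDZK1, SLC5A1 and VAMP8 (limma adjusted p = 0.06, 0.057, 0.08, 0.083 and 0.06), and GFP replicate 2 for DPP4, ELF3, SLC5A1, SLC9A3R2 and VAMP8 (0.1, 0.087, 0.062, 0.07 and 0.063). GFP replicate 3 did so for DPP4, PDZK1, SLC5A1, SLC9A3R2 and VAMP8 (limma adjusted p = 0.08, 0.061, 0.066, 0.067 and 0.09), CTNNB1 replicate 2 for ELF3, FSCN1, SLC5A1 and VAMP8 (0.067, 0.061, 0.092 and 0.069), and CTNNB1 replicate 3 for DPP4 (0.055). In the shAPC arm STX3 was not called without shNT1 replicate 1 or 2 or shAPC replicate 1 (limma adjusted p = 0.077, 0.055 and 0.056). ANKS4B and HNF4G were not called without shNT1 replicate 1 or 2 or shAPC replicate 2 or 3 (limma adjusted p up to 0.091 and 0.094), RAB8A without shNT1 replicate 1 or 3 or shAPC replicate 2 or 3 (up to 0.13), and MYO5B without any of these libraries or shNT1 replicate 2 (up to 0.17).

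**Figure D5:**
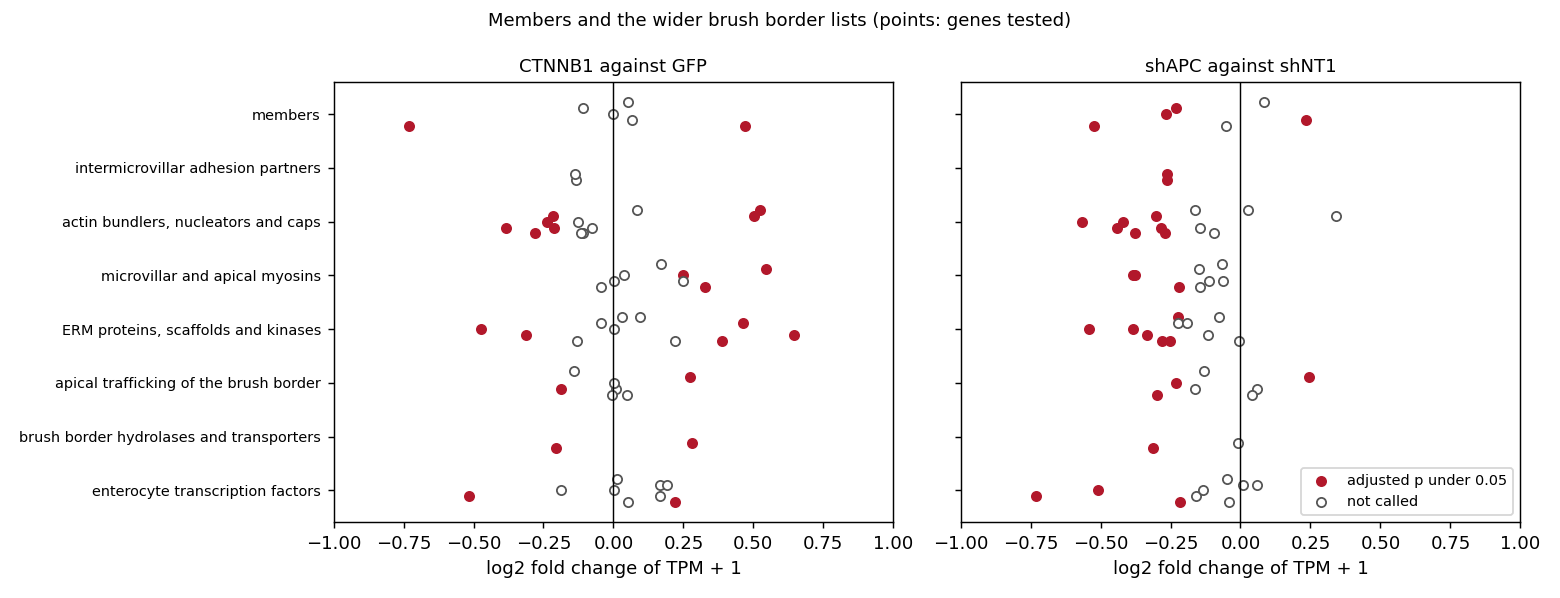
Log2 fold change of TPM + 1 for each tested gene of the brush border members and of 7 related lists, in both arms. Filled points have an adjusted p under 0.05. In the shAPC arm 24 of the 25 called genes of the 7 lists lie left of 0, and in the CTNNB1 arm 12 lie right and 10 left.

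The 6 tested genes varied in different ways over the 12 libraries. Pearson r of log2(TPM + 1) was 0.79 for CDHR5 and PLS1, -0.69 for VIL1 and CDHR5, and -0.92 for EZR and USH1C. The last pair also separates the 2 arms, so these values describe the groups. The genes most like each one, among 9436 others whose mean TPM reached 5, were JAK1 (0.953) and STYX (0.95) for VIL1, CSE1L (0.993) and MET (0.987) for EZR, and PMM1 (0.974) and ASS1 (0.969) for USH1C. For EPS8 they were ZNF195 (0.953) and RASSF6 (0.952), for PLS1 ARHGAP32 (0.978) and LIN54 (0.955), and for CDHR5, among 9437, ANXA10 (0.967) and HSPA1B (0.962). These are the highest values of a search over many genes and libraries in 4 groups. They too describe the groups, and shared regulation was not tested.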

How the data were processed

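RNA-seq was measured in 12 HT-29 libraries, 3 in each of 4 groups, grouped by their titles. The authors deposited TPM per gene and library. Per the submitters' processing notes, STAR 2.7.3a, hg38 and limma were used. The quantifier, gene annotation, strand setting and the authors' limma model are not given in the sources used here. The authors' deposited limma tables hold log2 fold changes and mean log2 expression, and, per the file headers, p-values and adjusted p-values. Their log-odds score, also deposited by the authors, was not used. TPM keeps no depth, so precision rests on the replicate spread.

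limma 3.58.1 (R 4.3.3) was fitted to each arm on log2(TPM + 1), with a variance trend, for genes whose mean TPM reached 1, with no block, and called at an adjusted p under 0.05 over all genes. Exact permutation tests used scipy 1.17.1 in Python 3.11.15. The fit was also run on simulated data with an assumed depth and spread, which do not bear on the calls reported here. As alternatives, the pseudocount was set to 0.1, the filter was dropped or raised to 5, and other fits used median-ratio scaling, quantile normalization, no variance trend, the replicate block, one fit of all groups and leaving out each library. Coordinates are GRCh38 from GENCODE 29, matched by symbol, and promoters are RefSeq on GRCh38.p14.

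The members and lists were chosen with earlier results of these data known. In the lists, MST4 was replaced by STK26 and ALPG by ALPPL2 after the data were seen, because the first names were not rows of the table. RefSeq gives each pair as synonyms. The text names all 10 members, the called genes with the 3 largest absolute changes in each wider list and arm, the most abundant gene of each list, 3 check genes (APC, CTNNB1 and AXIN2) and the 2 genes most like each member.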

Additional observations from a re-analysis of the deposited data

Results flagged for a closer look

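The change of VIL1 differed between the arms by 0.52 on the log2 scale (limma adjusted p = 0.00031, CTNNB1 effect minus shAPC effect). All 3 CTNNB1 libraries (112 to 114 TPM) were above all 3 GFP libraries (79.8 to 84.8 TPM), while shAPC (93.4 to 104 TPM) overlapped shNT1 (100 to 101 TPM). The controls themselves lay apart, though the share of all genes that did so was not computed, and vector, day and doxycycline differ between the arms.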

How the results depend on the processing

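VIL1 in the CTNNB1 arm and between the arms, CDHR5 in both arms, and EPS8 and PLS1 in the shAPC arm kept their calls and directions under every alternative that tested them. A filter at a mean TPM of 5 removed CDHR5, leaving 1 gene called in the CTNNB1 arm. Median-ratio scaling and quantile normalization each gave 2 genes called between the arms, with EPS8 added. Leaving out 1 library at a time gave 2 to 3 genes called in the CTNNB1 arm, 3 to 4 in the shAPC arm and 1 between the arms, and 12 to 26 and 18 to 25 genes of the wider list. Over all genes these fits called 12.9% to 27.5% in the CTNNB1 arm, 12.6% to 19% in the shAPC arm and 8.46% to 18.3% between the arms. Changes near 0 turned sign: EZR in the CTNNB1 arm to 0.0078 under quantile normalization and to values up to 0.0220 (lowest -0.0331, without CTNNB1 replicate 1) when GFP replicate 2 (0.0036) or 3, or CTNNB1 replicate 2 (0.012) or 3 (0.0193), was left out. In the same arm USH1C became -0.0187 and EPS8 -0.0092 under median-ratio scaling. VIL1 in the shAPC arm became 0.0264 under quantile normalization, and the arm difference of USH1C 0.0097 without GFP replicate 3 (lowest -0.0608, without GFP replicate 2). The cause was not tested. The labels do not say what a replicate number marks, and the numbers were not taken as pairs. Same-numbered libraries correlated at 0.07 to 0.22 in the CTNNB1 arm, with others at -0.18 to 0.07, and at -0.21 to -0.01 in the shAPC arm, with others at -0.12 to 0.2. With the replicate block 2, 3 and 1 of the 6 genes were called in the CTNNB1 arm, the shAPC arm and between the arms, EZR no longer passing (limma adjusted p = 0.065), and 23 and 18 genes of the wider list, with ANKS4B, HNF4G, MYO5B, RAB8A and STX3 among those no longer called with shAPC. Over all genes the block gave 24.9% called in the CTNNB1 arm, 14.9% in the shAPC arm and 9.75% between the arms. Depth is unknown, so no counting error can be given for the values under 1 TPM, and 3 libraries a group limit every interval.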
